A study of Oryza sativa Indica Group with 64 samples.

Results

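The leaf transcriptome after nightfall was compared with that at dusk in control rice, over 8 of the 64 libraries of the series. The members were chosen by their labels alone: the 4 control libraries labelled 14 h, a time counted from dawn, and the 4 control libraries labelled dusk. Both groups are leaf tissue of IR64, an indica rice grown in the field at IRRI in the dry season, and neither was treated. The control plants carried no transgene or mutation that the labels name. The rest of the control time course and the 32 libraries of the second treatment serve for comparison. These 32 came from leaves under warm night temperature (WNT, infrared heaters at night, called HNT in the study, whose text describes flag leaves), at the same 8 time points with 4 replicates each. The clock hour of dusk is not in the labels, so the length of the interval between dusk and 14 h is unknown. The p-values rest on the spread between the replicates of a group, estimated over all 64 libraries and not over the 8 alone. The labels do not say whether the replicates of a group came from separate plots or plants, so that spread may in part be technical.

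At the end of the day a leaf loses its light within a short time. Photosynthesis stops, the export of newly fixed sugar gives way to the breakdown of starch stored during the day, and photoreceptors such as phytochromes and cryptochromes no longer receive light. The circadian clock runs alongside, so that many transcripts start to fall in the afternoon and others rise in the evening or late at night whether or not the light changes. Each sample is a bulk leaf library, so less RNA of a gene per cell and fewer cells that express it cannot be told apart.

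RNA was selected by its poly(A) tail and read counts were given per gene. The 14 h libraries held between 4489611 and 10535833 counts on genes and the dusk libraries between 3429002 and 9000666, and the deepest of the 8 held 3.07 times the counts of the shallowest. A count of 0 in a library allows up to 3 counts, and such limits cover counting error only, because PCR reads without molecular identifiers are not independent molecules. The gene identifiers begin with MH and none of the 57174 was matched to a gene name, so clock, light, photosynthesis, starch and leaf marker genes were not analysed here, and the leaf label could not be set against its markers. For the same reason no gene sequence is shown. The results below describe the genes by level, direction, size of change and daily course, with 2 identifiers in each direction given in full.

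Of the 8 libraries, 2 stood apart on technical measures. In 14 h replicate 2, 37.8% of reads were counted on genes, against 67.5% to 69.8% in the other 14 h libraries, and 21.7% aligned to several places, against 3.597% to 5.92%. Dusk replicate 3 held the fewest counts on genes, 3429002, and 25.7% of its reads were not aligned. On the log2 scale of CPM, the counts of a gene scaled to the size of its library, the first principal component of the 8 libraries took 41.6% of the variance and did not separate the times: it placed replicates 1 and 2 of both times on one side and replicates 3 and 4 on the other. The second component, with 22.4%, placed all 14 h libraries (scores of 3.28, 69.6, 42.0 and 46.3) above all dusk libraries (−47.8, −13.3, −49.6 and −50.4). The largest share of the variance thus lay between libraries within each time. The 14 h group was also the more variable: the median SD of log2 CPM between replicates was 0.410 at 14 h and 0.325 at dusk.

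**Figure D1:**
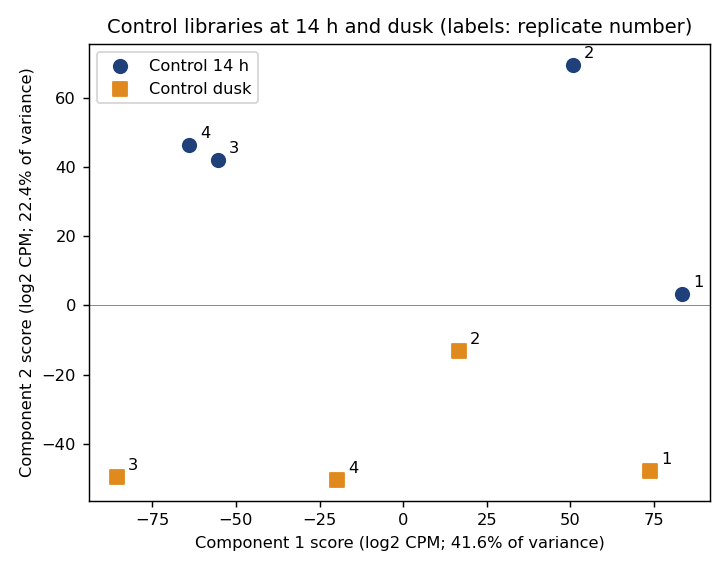
Scores of the 8 control libraries on the first 2 principal components of log2 CPM, with circles for 14 h and squares for dusk and the replicate number beside each point. Component 1 (41.6% of variance) parts replicates 1 and 2 from replicates 3 and 4 at both times, and component 2 (22.4%) holds every 14 h library above every dusk library, with 14 h replicate 1 (3.28) and dusk replicate 2 (−13.3) nearest to each other.

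Some libraries lay nearer to a neighbouring time than to their own. Dusk replicate 1 correlated at 0.979 with the mean of the control 10 h libraries, against 0.955 with the mean of the other dusk libraries. 14 h replicate 1 correlated at 0.967 with the mean of the control 17 h libraries, against 0.942 with the mean of its own group. These correlations run across genes of single libraries, which are not independent replicates, and are given as a description.

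After nightfall more transcripts were lower than higher on the TMM scale, one that sets the bulk of genes level between libraries. Of 20525 genes tested, 1110 (5.41%) differed between control 14 h and dusk leaves at an adjusted p-value under 0.05 (edgeR's two-sided quasi-likelihood test, adjusted by Benjamini-Hochberg). Of these, 399 (1.94%) were higher at 14 h and 711 (3.46%) were lower. The median change of the genes that rose was 2.06-fold (1.04 on the log2 scale), and that of the genes that fell was 2.40-fold (a log2 fold change of −1.27). The smallest change that passed was 0.34 on the log2 scale, and the largest were 7.34 among genes that rose and −6.34 among genes that fell. The change passed 2-fold in 686 genes (3.34%), 204 of them higher and 482 lower at 14 h. The split of directions rests on the scaling: with library size alone in place of TMM factors, which moved the median log2 fold change of all genes by 0.155, 720 genes rose and 460 fell. Fitted alone, the 8 libraries gave 72 rises and 277 falls, and 255 rises and 596 falls with the replicate number as a block. On the TMM scale used here the log2 fold change had a median of −0.00086 over the tested genes.

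The typical change over this interval was too small to resolve gene by gene. Irrespective of sign, the log2 fold change had a median of 0.275 over the tested genes, below the median standard error of 0.294. By edgeR 3517 genes (17.1%) had an unadjusted p under 0.05, a share larger than that threshold would pass with no change in any gene. Among the genes that did not pass after adjustment, 1443 showed a difference of 2-fold or more. These were scarce transcripts, with a median of 1.32 CPM and a median standard error of 0.773, whereas the genes that passed had a median of 32.2 CPM and a median standard error of 0.297. Precision thus followed the level of a gene. With the genes split by level into 3 sets of equal size, 2.85% passed in the lowest set, where the smallest log2 change that did so was 0.756, and 7.86% passed in the highest set, with changes as small as 0.337.

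**Figure D2:**
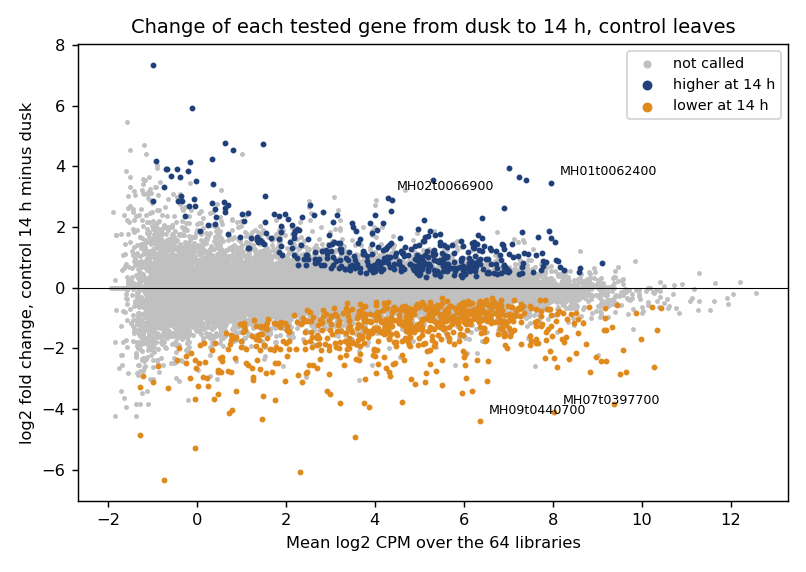
Log2 fold change of each of the 20525 tested genes, control 14 h over dusk, against its mean log2 CPM over the 64 libraries, with the 399 genes higher and 711 genes lower at 14 h coloured and the 4 named genes marked. The highest of 3 equal sets by level holds 194 of the higher and 344 of the lower genes. The smallest change called is 0.756 in the lowest set and 0.337 in the highest.

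Falls and rises both reached abundant transcripts. By mean level over the 64 libraries, 344 falls and 194 rises lay in the highest of 3 equal sets. The 711 genes that fell had a median of 22.5 CPM at 14 h and 53.4 CPM at dusk, and the 399 that rose had a median of 28.9 CPM at 14 h and 14.4 CPM at dusk. As a share of all gene counts, the genes that fell held 5.16%, 4.07%, 4.38% and 4.58% in the 14 h libraries, against 12.2%, 9.95%, 9.21% and 11.5% in the dusk libraries. No library of one time came near the other. The genes that rose held 2.16%, 6.53%, 3.51% and 3.03% at 14 h, against 1.14%, 1.47%, 1.35% and 1.31% at dusk, and the highest of these values came from 14 h replicate 2, the library with odd alignment shares. Because these genes were picked by the same contrast, the shares describe the size of the pools and test nothing.

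Among the most abundant transcripts most values were lower at 14 h on the TMM scale. Of the 100 genes with the highest mean CPM over the 8 libraries, 4 rose and 15 fell (5.41% of all genes passed), 82 had a negative log2 fold change, and the median was −0.44. Together they held 13.1% of the CPM at 14 h and 16.6% at dusk. By mean log2 CPM, 51.8% of all tested genes lay below dusk at 14 h. Of the genes that passed with a mean of at least 1000 CPM, 1 was higher at 14 h and 7 were lower, and in all 7 every 14 h library lay below every dusk library. With a mean of at least 100 CPM, 43 genes rose and 172 fell, and every one of these had the same sign in WNT leaves. So did 97.4% of all control genes that passed and 72.0% of all tested genes.

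A change between silence and expression was rare and was seen only near the limit of detection. In 12 genes no dusk library had a count while every 14 h library had at least 1, with 4 to 12 counts in all, and in 11 genes the reverse held, with 5 to 30 counts. Just 1 gene of each kind had enough counts to be tested, and both passed. Against a floor of 3 counts per group, the highest of these changes was at least 4.28-fold higher at 14 h in the first kind and at least 9.35-fold lower at 14 h in the second. Both groups of genes are too sparsely counted to read more from them.

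The libraries of the times could be compared with no model of the spread. In 1721 genes (8.38%) the CPM of every 14 h library lay on one side of every dusk library, and 667 of these were higher at 14 h and 1054 lower. Of the 1110 genes that passed the test, 811 (73.1%) were of this kind. The share was 61.9% of the genes that rose (247) and 79.3% of those that fell (564). The falls were also the larger changes, and the difference between the directions was not tested. Same-numbered libraries changed in one direction in 4 of 4 pairs in 1030 (92.8%) of the genes that passed and in 25.6% of all tested genes. The test used the same libraries, so these shares are a description of the calls and not a second test.

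MH07t0397700 was the most abundant transcript to fall by at least 2-fold. It stood at 418.3, 246.1, 137.9 and 376.2 CPM in 14 h replicates 1 to 4, against 7718.3, 3440.1, 3493.2 and 5394.8 CPM at dusk. The groups lay far apart, with the highest 14 h library below every dusk library. The log2 fold change was −4.09 (SE 0.95; adjusted p = 0.00465, edgeR). In WNT leaves it stood at 181.0, 140.1, 151.5 and 158.9 CPM at 14 h, against 4040.5, 4311.6, 2535.8 and 2746.0 CPM at dusk (log2 fold change −4.43, SE 0.96; adjusted p = 0.00471, edgeR). Over the control day its mean was 14.7 CPM at dawn and 113.7 CPM at 3 h, then 4776 CPM at 7 h, 12394 CPM at 10 h and 5012 CPM at dusk, and in the night 294.6, 44.4 and 17.5 CPM (14 h, 17 h and 23 h). Its highest control mean was thus at 10 h, before dusk.

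MH09t0440700 had the largest fall among well-counted genes whose libraries did not overlap. Its level was 15.5, 5.09, 16.6 and 8.93 CPM at 14 h, against 310.7, 264.1, 123.2 and 283.9 CPM at dusk, and again no library of one time reached the other. The log2 fold change was −4.40 (SE 0.86; adjusted p = 0.000756, edgeR). WNT leaves held 5.05, 6.61, 4.62 and 5.50 CPM at 14 h, against 162.6, 222.7, 114.3 and 112.1 CPM at dusk (log2 fold change −4.80, SE 0.88; adjusted p = 0.000711, edgeR). Its control mean stayed high from 7 h (1262 ± 541 CPM, SD, n = 4) to 10 h (1230 ± 422 CPM), stood at 245 ± 83.7 CPM at dusk and 11.5 ± 5.49 CPM at 14 h, and was 22.3 ± 2.46 CPM at dawn. Both genes kept their direction and their call in every alternative that was run.

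MH02t0066900 had the largest rise by the same rule. It stood at 14.7, 43.9, 24.7 and 62.6 CPM at 14 h, against 2.71, 6.41, 9.34 and 1.26 CPM at dusk. The lowest 14 h library still lay above the highest dusk library, though the values within each time spread widely. The log2 fold change was 2.96 (SE 0.69; adjusted p = 0.00496, edgeR), and the call was lost when the 8 libraries were fitted alone (adjusted p = 0.0694, edgeR, and 0.0682 with the replicate block) or when every library was thinned to the lowest total (adjusted p = 0.145, edgeR). In WNT leaves it stood at 38.2, 7.01, 6.33 and 21.8 CPM at 14 h, against 1.99, 2.50, 15.0 and 3.81 CPM at dusk, where the times overlapped and the difference did not pass (log2 fold change 1.94, SE 0.70; adjusted p = 0.145, edgeR). Its control means lay between 40.5 and 50.8 CPM from dawn to 7 h, at 6.83 and 4.93 CPM at 10 h and dusk, and between 22.2 and 36.5 CPM at night.

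MH01t0062400, the most abundant transcript called higher by at least 2-fold, rested on a single library. It stood at 283.5, 7799.9, 175.5 and 93.7 CPM at 14 h, against 166.7, 120.4, 129.8 and 342.9 CPM at dusk. Apart from replicate 2 at 7799.9 CPM the times overlapped. The fitted log2 fold change was 3.46 (SE 0.81; adjusted p = 0.00538, edgeR), and without 14 h replicate 2 it was −0.044 (adjusted p = 0.995, edgeR). In WNT leaves the log2 fold change was 0.30 (adjusted p = 0.909, edgeR). This rise therefore belongs to the library in which 21.7% of reads aligned to several places, and the part of those reads in it was not tested. Outside this step, MH01t0062400 stood at 2373 CPM in WNT 23 h replicate 3, against 193.2 to 334.6 CPM in the other WNT 23 h libraries. In that library 9.97% of reads aligned to several places and 59.8% were counted on genes. A link between these shares and the level was not tested.

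**Figure D3:**
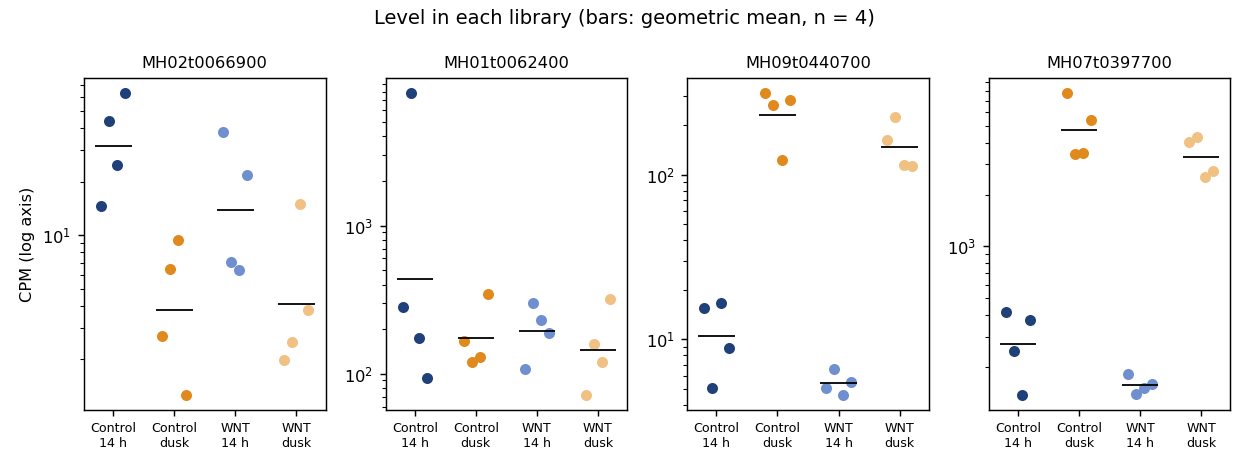
CPM of the 4 named genes in each control and WNT library at 14 h and dusk, on a log axis, with a bar at the geometric mean of each group (n = 4). MH09t0440700 and MH07t0397700 are lower in every 14 h library than in any dusk library of the same treatment, MH02t0066900 does not overlap between the times in control leaves and does in WNT leaves, and MH01t0062400 is high in just 14 h replicate 2 of the control (7799.9 CPM).

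The number of genes that passed moved with single libraries. Without 14 h replicate 2, 642 genes passed, 233 higher and 409 lower at 14 h, and these held 55.6% of the rises and 55.6% of the falls reported above. The log2 fold change dropped to under 0.5 of its size in 22 of the 399 genes that rose and in 0 of the 711 that fell. Without dusk replicate 1, the library nearest to 10 h, 574 genes passed, and without 14 h replicate 1, the library nearest to 17 h, 1575 passed, among them 94.0% of the rises and 88.5% of the falls reported above. Without dusk replicate 4 and without 14 h replicates 3 or 4 the numbers were 637, 713 and 707, and without dusk replicates 2 or 3 they were 1079 and 962. In all 8 fits that each left out 1 library, 28.3% of the genes that rose and 39.7% of those that fell (282 genes) passed.

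The genes with the largest changes were followed library by library. Of the 39 genes that fell at least 8-fold, 35 had no overlap between the times (8.38% of all tested genes), 33 passed without 14 h replicate 2 and 30 passed in all 8 fits that left out a library. Of the 24 genes that rose at least 8-fold, 9 had no overlap, 9 passed without 14 h replicate 2 and 3 passed in all 8 fits. In 14 of these 24 genes the highest level was in 14 h replicate 2 and in 8 it was in replicate 3. Without replicate 2 the median log2 fold change of the 24 was 0.826, while that of the 39 genes that fell was −3.54. These genes were chosen by their change in the same libraries, so the values are a description, and the difference between rises and falls was not tested.

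The WNT libraries give the same step in leaves that share no library with the control comparison. In them 502 genes (2.45%) passed, 174 (0.848%) higher and 328 (1.6%) lower at 14 h than at dusk. Both treatments called 360 genes, every one in the same direction, which is 71.7% of the WNT list and 32.4% of the control list. Of the control genes that rose, 87 (21.8%) also passed in WNT leaves, and of those that fell, 273 (38.4%). The WNT list was the shorter one here, but the order of the lists depends on the fit: it turned when each treatment's 14 h and dusk libraries were fitted alone (604 genes in WNT leaves and 349 in control leaves) and with limma and voom weights (2403 in WNT leaves and 1870 in control leaves). Leaving out a WNT library gave 216 to 565 WNT genes, with the lowest without WNT 14 h replicate 4, and with 241, 272 and 283 without WNT 14 h replicate 1 and WNT dusk replicates 4 and 1. Without WNT dusk replicate 2 the share of the control list that also passed was 19.3%.

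The direction of change was shared far beyond the genes that passed in both. Of the 1110 control genes, 1081 (97.4%) had the same sign in WNT leaves, as did 72.0% of all tested genes. The share was 94.5% for genes that rose and 99.0% (704 genes) for genes that fell. The genes that rose had a median log2 fold change of 0.59 in WNT leaves and 1.04 in control leaves, and those that fell had −0.88 in WNT leaves and −1.27 in control leaves. These control values are those that chose the genes. For genes chosen in WNT leaves the medians were 0.89 in WNT leaves and 0.74 in control leaves for rises, and −1.44 and −1.40 for falls in WNT and control leaves. Across all 20525 genes the steps correlated at 0.583 (Pearson's r across genes, which are not independent replicates).

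The same held with no model of the spread. In WNT leaves 2181 genes (10.6%) had no overlap between 14 h and dusk. Among the control genes that fell, 398 (56.0%) lay below dusk in every WNT 14 h library, against 5.88% of all tested genes, and among those that rose, 148 (37.1%) lay above, against 4.75%. In 638 genes the times did not overlap in either treatment and moved in one direction, 174 up and 464 down, and in 0 genes the directions were opposed.

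The same genes were then read in WNT leaves. All 39 genes that fell at least 8-fold in control leaves had the same sign in WNT leaves and 31 passed there, with a median log2 fold change of −2.92 in WNT leaves and −3.52 in control leaves. Of the 24 genes that rose at least 8-fold, 18 had the same sign, a share near the 72.0% of all tested genes, and 0 passed. Their median was 0.40 in WNT leaves and 3.88 in control leaves. At 4-fold or more, 90 (62.9%) of the genes that fell and 6 (8.96%) of those that rose passed in WNT leaves. Of all tested genes, 1.6% passed as lower and 0.848% as higher at 14 h in WNT leaves. Whether rises and falls differ in this respect was not tested.

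No gene was shown to step differently under WNT. The difference between the WNT step and the control step passed in 0 of 20525 genes (0%) by edgeR, and also in 0 by DESeq2 and by limma with voom weights. By edgeR 485 genes (2.36%) had an unadjusted p under 0.05, a share smaller than that threshold would pass with no difference in any gene. Of these, 128 were among the 1110 control genes (11.5% of the 1110). The control step chose those genes and is also part of the difference, so that share is not a separate result. The median standard error of this difference was 0.417 on the log2 scale, so a moderate difference in a single gene was not detectable with these libraries.

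**Figure D4:**
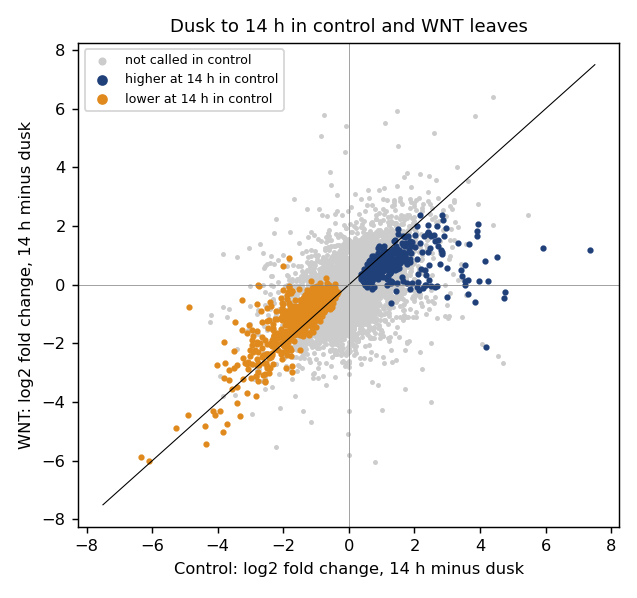
Log2 fold change of 14 h over dusk in WNT leaves (vertical) against that in control leaves (horizontal) for the 20525 tested genes, with the 399 genes higher and 711 lower at 14 h in control leaves coloured and a line at equal change. Of the lower genes, 704 of 711 have the same sign in WNT leaves, with a median of −0.88 there and −1.27 in control leaves. Of the higher genes, 94.5% have the same sign, with medians of 0.59 in WNT leaves and 1.04 in control leaves. For falls of 8-fold or more the medians are −2.92 in WNT leaves and −3.52 in control leaves. For rises of 8-fold or more they are 0.40 and 3.88. The control values chose the genes.

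The genes that changed at nightfall had clear places in the day, read here from the WNT libraries, which were not part of the contrast that chose them. They did enter the filter and the shared estimate of the spread, and a fit of the 32 control libraries alone called 949 of the 1110 genes. Genes that fell at 14 h in control leaves were most often highest at 10 h in WNT leaves (44.0%, against 17.8% of all tested genes), then at 7 h (18.1%, against 11.04%) and at dusk (13.6%, against 10.4%). Relative to WNT dusk their median log2 level was −1.15 at dawn and −0.60 at 3 h, reached 0.12 at 7 h and 0.39 at 10 h, and then stood at −0.86, −0.74 and −1.04 in the 14 h, 17 h and 23 h libraries. By the median they were highest at 10 h, lay below dusk at dawn and 3 h, and were below dusk at each night time. Of these genes 98.5% lay below WNT dusk at 14 h, 88.3% did so by 17 h, and 79.2% were still below at 23 h, as were 76.9% at dawn. In WNT leaves at 17 h, replicate 3 stood apart: MH07t0397700 was at 5458 CPM in it (16.3 to 40.8 CPM in the other 17 h libraries) and MH09t0440700 at 476 CPM (1.54 to 4.50 CPM). The fallen genes had a median of −0.088 in that library and between −1.07 and −0.83 in the other 17 h libraries. Without it, an alternative chosen after seeing the data, their 17 h median was −0.91 and 89.7% lay below WNT dusk.

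Genes that rose at 14 h formed the mirror image. In WNT leaves 41.6% were highest at dawn (16.5% of all tested genes), 21.8% at 3 h (15.98%) and 17.3% at 14 h (8.69%). Their median log2 level relative to WNT dusk was 0.98 at dawn and 0.77 at 3 h, came down to 0.31 at 7 h and −0.035 at 10 h, and stood at 0.57, 0.50 and 0.91 in the 14 h, 17 h and 23 h libraries, or 0.59 at 17 h without replicate 3. The low point was thus 10 h to dusk. The median changed little between 14 h and 17 h and stood higher at 23 h and at dawn. Most lay above WNT dusk in the night: 95.5% did so at 14 h, 88.97% by 17 h, 87.5% by 23 h and 87.97% by dawn.

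The control libraries also held the fallen genes low and the risen genes high through the night. Over 14 h, 17 h and 23 h the genes that fell had medians of −1.27, −1.29 and −1.42, and the genes that rose had 0.97, 0.88 and 1.09. The risen genes were most often highest at 23 h (34.6%) and 14 h (32.6%) in control leaves, with 14.8% highest at dawn and 7.77% at 3 h, unlike the order of these times in WNT leaves. The difference between the treatments was not tested. The control dusk libraries are the base of all these values and chose the genes, so these are a description. Over all tested genes, the median stayed between −0.058 and 0.070 at every control time.

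**Figure D5:**
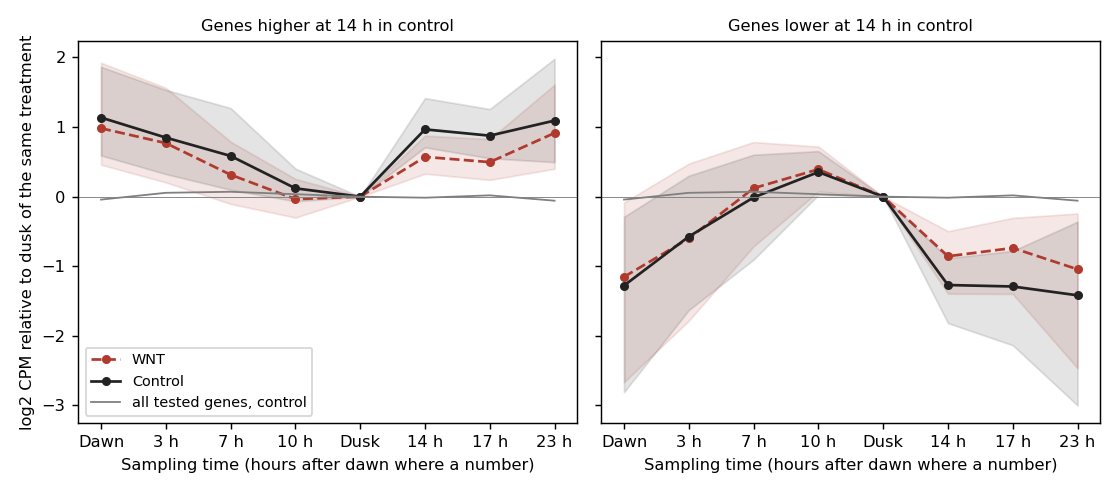
Median log2 CPM relative to dusk of the same treatment at each time for the 399 genes higher (left) and the 711 genes lower (right) at 14 h in control leaves, with bands from the first to the third quartile over genes. In WNT leaves (dashed) the higher genes stand at 0.57 at 14 h and 0.98 at dawn and the lower genes at −0.86 at 14 h and 0.39 at 10 h, beside the control course (solid) and the median of all tested genes in control leaves (grey).

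Set among its neighbours in the control time course, the step into darkness was among the smaller ones. The steps called 5469 genes (26.6%) between dawn and 3 h, 2419 (11.8%) between 3 h and 7 h, 3964 (19.3%) between 7 h and 10 h, 189 (0.921%) between 10 h and dusk, 1110 between dusk and 14 h, 510 (2.48%) between 14 h and 17 h and 6354 (31%) between 17 h and 23 h. Neighbouring steps share a group of libraries and span unequal times, so the counts stand side by side with no test. The typical size of the log2 change, its median without sign, was 0.237 between 10 h and dusk, 0.275 between dusk and 14 h and 0.278 between 14 h and 17 h, against 0.348 between 3 h and 7 h, 0.393 between 7 h and 10 h, 0.461 between dawn and 3 h and 0.474 between 17 h and 23 h. Between 14 h and 17 h the balance of directions was the other way, with 73.9% of the genes that passed higher at 17 h.

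The genes that changed were found in every numbered set of identifiers. By the digits that follow MH, whose meaning the files do not state, from 3.81% (MH12) to 6.62% (MH09) of tested genes passed in each of the 12 numbered sets. Of tested genes listed next to a gene that passed, 11.6% passed as well (5.41% of all tested genes). In 63 of 71 such pairs both genes changed in the same direction, and 55.1% of all neighbouring tested pairs had the same sign. Without strand information on the counting, reads of overlapping genes and near-identical copies cannot be told apart, so neighbouring pairs are uncertain as separate genes.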

How the data were processed

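Gene counts were deposited by the authors as whole numbers without normalization, 1 table per library with 57174 genes and 5 closing lines for reads not counted on a gene, which were left out of library sizes. The submitters' processing notes name HISAT2 2 and HTSeq 0.6.0; the genome build, annotation and strand setting are not given in the sources used here. Groups and replicate numbers came from the labels, and no replicate pair agreed within sampling noise.

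Counts were tested with edgeR 4.0.16 in R 4.3.3 over all 64 libraries with a mean for each of 16 groups (filterByExpr, count minimum 10 and total 15; TMM; glmQLFit with robust estimation; glmQLFTest), as the control 14 h minus dusk contrast, the same contrast in WNT and their difference. P-values were adjusted over all 20525 tested genes, and a gene passed under 0.05. Standard errors were taken as the size of the change over the square root of F. CPM used TMM factors, and log2 CPM a prior count of 2. The common biological coefficient of variation was 0.332 over the 64 libraries, 0.416 in the control 14 h group and 0.329 in the control dusk group. The test was tested on simulated data in which every gene had the same spread. Of the changes put into genes above a minimum mean count, 17 of 100 passed at a log2 size of 1 and 97 of 100 at 2. Of the unchanged genes 4 passed.

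The members and lists were chosen with earlier results of these data known. As 0 identifiers matched a name in the gene table used (assembly ASM3414082v1), lists of named genes were not run, and 4 genes are named: in each direction the called gene with the largest change among those with at least 10 counts in each of the 8 libraries and no overlap between the times, and the called gene with the highest mean CPM among those changed at least 2-fold.

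Same-numbered control libraries deviated together, with correlations of their deviations from the group means of 0.673, 0.301, 0.419 and 0.237 for replicates 1 to 4. The main fit did not pair them. The label numbers served as pairs in the replicate block of the alternatives and in the count of same-numbered pairs. However, 14 h replicate 4 deviated more with dusk replicate 3 (0.488) than with its own number. So did 14 h replicate 2 with dusk replicate 1 (0.351). Same-numbered WNT libraries did not deviate together (−0.187 to −0.0345). What the numbers mark is not given in the labels. Alternatives were other scalings, filters, samples and thresholds, a replicate block, thinning, DESeq2 1.42.0, limma 3.58.1 and leaving out libraries. Figures were made in Python 3.11.15 (matplotlib 3.10.9).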

Additional observations from a re-analysis of the deposited data

Results flagged for a closer look

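In 50 checks of library measures and named genes for a replicate far from the other 3 of its group, 5 stood out, where chance gives about 1 in 20 (2.5). Control 14 h replicate 2 stood out 3 times: with 37.8% of reads on genes (67.5% to 69.8% in the others), with 21.7% of reads aligned to several places (3.597% to 5.92%), and with 7799.9 CPM of MH01t0062400 (93.7 to 283.5 CPM). Control dusk replicate 3 was shallow, with 3429002 gene counts where the remaining dusk libraries had 8055878 to 9000666. WNT dusk replicate 3 held 15.0 CPM of MH02t0066900, against 1.99 to 3.81 CPM in the other WNT dusk libraries.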

How the results depend on the processing

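The falls of MH09t0440700 and MH07t0397700 kept their direction and call in every alternative run, and 0 genes stepped differently under WNT in each that tested it. The median absolute log2 fold change lay between 0.197 (no filter) and 0.344 (every library thinned to the lowest total). With 1 control library left out the comparison gave 574 to 1575 genes, with 0.916% to 2.94% of the 20525 tested genes higher and 1.88% to 4.73% lower, and 399 to 999 at 2-fold or more, 9.97% to 18.1% of genes without overlap (4 libraries against 3 overlap less often by construction), and log2 fold changes of −0.044 to 3.91 for MH01t0062400. With 1 library left out, WNT gave 216 to 565 genes and the share of control genes also called in WNT was 16.5% to 43.0%.

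At an adjusted p under 0.01, 456 genes passed (0.741% of the tested genes higher, 1.48% lower, 339 genes at 2-fold), and 191 in WNT. Library size alone gave 3.51% higher and 2.24% lower. With no filter 1.21% rose, WNT had 322 and 4.64% of genes did not overlap. At least 10 counts in every library left 402 genes at 2-fold. The compared libraries fitted alone gave 349 genes (0.351% higher, 1.35% lower, 292 at 2-fold; 20.6% of the calls higher, against 35.9%), a WNT share of 57.9%, and no call for MH02t0066900 (2.99) or MH01t0062400 (3.52; adjusted p = 0.328, edgeR). DESeq2 gave 1426 genes, and 803 in WNT. Limma gave 1870 (3.17% higher, 5.94% lower), 2403 in WNT, a share of 59.9%, and 1.63 for MH01t0062400 (adjusted p = 0.163). Thinning to the lowest total left 161 genes (0.185% higher, 0.599% lower, 154 at 2-fold; 23.6% of the calls higher), 79 in WNT and 2.78 for MH02t0066900. No filter gave 750 genes in control leaves.

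With the replicate block in all 64 libraries 1150 genes passed, 1054 of them among the 1110. With the block and the compared libraries alone, 851 passed (1.24% higher), 180 in WNT, with a share of 16.7%, and MH02t0066900 (2.97) and MH01t0062400 (0.950; adjusted p = 0.776, edgeR) lost their call; the block changed no other call of a named gene. These settings were chosen after seeing the data: without 14 h replicate 2 and dusk replicate 3, 626 genes passed (1.096% higher, 1.95% lower; 17.3% without overlap; MH01t0062400 −0.188), and with the block and without 14 h replicate 2, 693 passed (1.19% higher, 2.18% lower; MH01t0062400 −0.059). The cause of these differences was not tested. In the lowest of 3 equal sets of genes by level, no change under 0.756 on the log2 scale passed.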
